A study of Homo sapiens with 16 samples.

Results

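The genes described here are the 7SK small nuclear RNA (RN7SK), the RNA of the signal recognition particle (7SL, encoded by RN7SL1 and RN7SL2), the RNA subunits of RNase MRP (RMRP) and RNase P (RPPH1), and the 7SK proteins LARP7, MEPCE, HEXIM1 and HEXIM2. They were chosen by gene symbol and are 9 of the 62710 genes in the count tables, with 1 row each. The RNA-seq data are 16 libraries from 4 human B-cell lymphoma lines that were targeted with CRISPR-Cas9 guide pools and kept as pools, not clones. The AAVS baseline and AAVS IL4 groups hold control pools (genotype AAVS -/-), in which an integration site was targeted, and the CREBBP baseline and CREBBP IL4 groups hold pools targeted at the acetyltransferase gene CREBBP (genotype CREBBP -/-). All pools were cultured for 4 h, and the IL4 groups received 10 ng/ml of interleukin 4. Each group has 4 libraries, 1 for each line, and values are given for lines 1 to 4 in that order. SU-DHL4 cells are line 1 and DOHH2 cells line 4. Lines 2 and 3 are OCI-LY7 and SU-DHL10, but titles and cell line entries name them in opposite order, so only their numbers are used.

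RNA polymerase III makes all 5 RNAs. 7SK RNA holds the kinase P-TEFb (CDK9 with cyclin T) in an inactive particle, in which HEXIM1 or HEXIM2 binds the RNA and inhibits the kinase, MEPCE caps the 5′ end and LARP7 covers the 3′ end. Release of P-TEFb lets paused RNA polymerase II continue into elongation, and HEXIM1 is known as a gene that responds to that release. 7SL RNA is the scaffold of the signal recognition particle, which brings ribosomes that make secreted and membrane proteins, immunoglobulin among them, to the endoplasmic reticulum. RNase P trims the 5′ end of transfer RNAs, and RNase MRP cuts the precursor of ribosomal RNA.

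The libraries held 19649735 to 61981976 counts. CREBBP mRNA did not separate the pools at baseline, with 205 to 360 CPM (a gene's counts per 1000000 counts of the library) at AAVS baseline and 187 to 278 CPM at CREBBP baseline. With IL4 it was at 315, 190, 315 and 379 CPM in AAVS pools and at 214, 69.9, 245 and 218 CPM in CREBBP pools. It was lower in the CREBBP pool of each line there, and these groups overlapped. The study reports loss of CREBBP protein in the targeted pools by immunoblot. The 10 B-cell markers were present in every group, with sums of 4135 to 10487 CPM. The AAVS IL4 libraries stood apart. The sum of 6 surface immunoglobulin and adhesion genes (IGHM, IGHD, CD44, VIM, ANXA2 and S100A4) was 1852, 915, 3635 and 758 CPM there, against 3.11 to 11.2 CPM in the other 12 libraries. S100A4 did not share this rise, at 0.412 to 5.93 CPM in AAVS IL4 and 0.0490 to 7.29 CPM at AAVS baseline. Of the 13 T-cell markers all reached 1 CPM in some AAVS IL4 library, against 3 to 6 in the other groups, and their summed level was 127 to 296 CPM against 89.8 to 182 CPM. LCK, a large part of that sum, went the other way, at 42.2 to 99.3 CPM in AAVS IL4 and 97.6 to 156 CPM at AAVS baseline. IL7R was at 6.77 to 64.2 CPM against 0 to 1.09 CPM in these groups. TRAC overlapped between them, at 4.30 to 39.2 CPM and 1.03 to 23.6 CPM. The 10 myeloid markers summed to 5.92 to 24.6 CPM in AAVS IL4 against 0.398 to 4.21 CPM in the other groups, with MARCO at 0 in all AAVS IL4 libraries. The 10 stromal and epithelial markers summed to 0.124 to 34.0 CPM over all libraries, and KRT19 was at 0 in every group. Comparisons that use the AAVS IL4 libraries therefore set apart libraries that also differ in these transcripts, and the part of these transcripts in the results was not tested. Differences in cell number and in RNA per cell cannot be told apart in bulk RNA.

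The RNA genes are short, single-exon genes on GRCh38. RN7SK lies at chr6:52995621-52995948 on the plus strand. RN7SL1 (chr14:49586580-49586878, plus strand) and RN7SL2 (chr14:49862550-49862849, minus strand) are 275671 bases apart. RPPH1 is also on chromosome 14 (chr14:20343075-20343407, minus strand), and RMRP is at chr9:35657754-35658017 on the minus strand. RN7SL1 and RN7SL2 encode nearly the same RNA, so most of their reads cannot be assigned to 1 gene by sequence, and RSEM, the program that made the counts, divides them by estimate. The split between RN7SL1 and RN7SL2 is therefore uncertain, and their sum is given beside it.

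The 5′ end of RN7SK is shown because HEXIM1 is known to bind GATC motifs within it. All matches of these letters are in capitals, at bases 12 to 15, 41 to 44 and 63 to 66 of the RNA. Which of these matches HEXIM1 binds was not tested. The bases before the starts of RN7SK, RMRP and RPPH1 are shown because these genes, unlike RN7SL1 and RN7SL2, use an upstream TATA element, in capitals. The last 60 bases before each RNA are printed.

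RN7SK, bases 1 to 110: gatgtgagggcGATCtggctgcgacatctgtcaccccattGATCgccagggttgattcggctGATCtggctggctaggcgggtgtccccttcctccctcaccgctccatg
RN7SK, upstream, chr6:52995561-52995620, plus strand: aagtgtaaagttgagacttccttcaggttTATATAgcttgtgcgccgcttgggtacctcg
RMRP, upstream, chr9:35658018-35658077, minus strand: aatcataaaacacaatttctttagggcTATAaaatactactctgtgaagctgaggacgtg
RPPH1, upstream, chr14:20343408-20343467, minus strand: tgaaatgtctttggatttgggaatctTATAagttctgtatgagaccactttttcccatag
RN7SL1, upstream, chr14:49586520-49586579, plus strand: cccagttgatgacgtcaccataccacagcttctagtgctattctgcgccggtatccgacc
RN7SL2, upstream, chr14:49862850-49862909, minus strand: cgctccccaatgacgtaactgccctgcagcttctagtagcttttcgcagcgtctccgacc

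The first TATA began 31, 33 and 34 bases before RN7SK, RMRP and RPPH1, and none lay in the window of RN7SL1 or RN7SL2. The same letters on the same strand occurred in the matching 60 bases of 9.28% of 35116 RefSeq promoters (GRCh38.p14). The letters TGACGTCA, which CREB family factors are known to bind, lay on either strand in the 300-base windows (250 bases before the start to 50 after it) of RN7SL1, RPPH1 and LARP7, and in 1.85% of all promoters. These were 3 of 13 windows of the 9 genes, and LARP7 had a further window without the letters. Other motifs looked for were TATAA (7 of 13 windows, 20.4% of promoters), CCAAT (5, 34.6%), ATGCAAAT (2, 1.77%), CACGTG (1, 7.26%) and TGANTCA (0, 7.71%). A match of letters is a description and not a bound site. A run of 4 or more T, the known stop signal of RNA polymerase III, began at the last base of RN7SK and RN7SL1, at base 299 of the 300 bases of RN7SL2 and at the third base after the ends of RMRP and RPPH1.

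The 7SK and 7SL RNAs took the most counts of all genes in the data. RN7SK ranked 1, RN7SL1 2, RN7SL2 3, RPPH1 8 and RMRP 43 of 62710 genes by mean CPM over the 16 libraries, which is not scaled for length. The 5 RNAs took 4.93% to 19.7% of a library's counts. At AAVS baseline their share was 6.19%, 5.40%, 6.78% and 7.56%, and in AAVS IL4 it was 8.35%, 7.48%, 11.2% and 7.81%. The share was 7.83%, 6.47%, 14.6% and 5.70% at CREBBP baseline, and 8.92%, 19.7%, 5.78% and 4.93% in CREBBP IL4. Line 3 at CREBBP baseline and line 2 in CREBBP IL4 were above all others, and the groups overlapped.

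**Figure D1:**
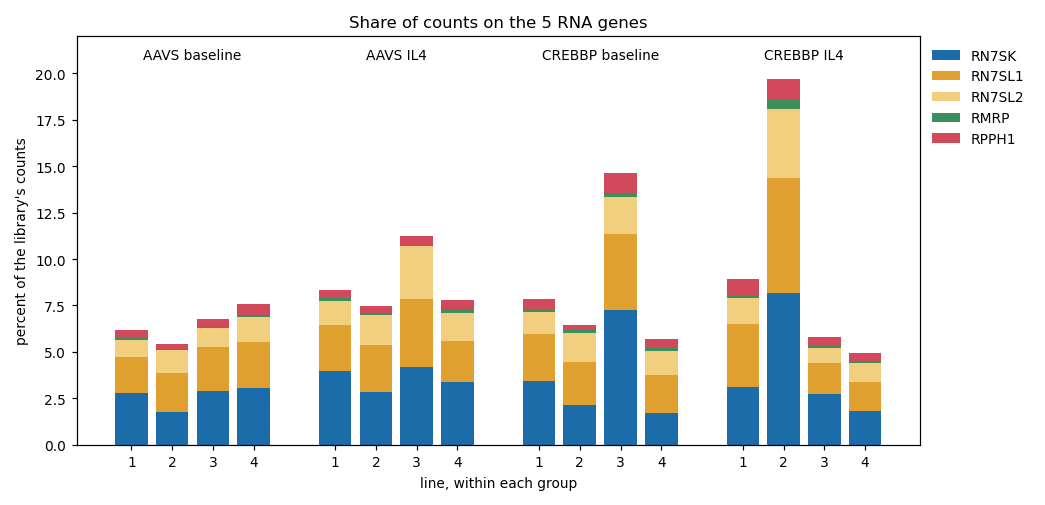
Stacked bars show the percent of each library's counts on RN7SK, RN7SL1, RN7SL2, RMRP and RPPH1, by group and line. The highest bars are line 2 in CREBBP IL4 at 19.7% and line 3 at CREBBP baseline at 14.6%.

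These 2 libraries differed from the other 14 in further measures. Ribosomal protein genes took 9.16% (line 2, CREBBP IL4) and 9.06% (line 3, CREBBP baseline) of their counts, against 4.40% to 7.25% elsewhere. Histone genes took 2.50% and 3.01%, against 0.586% to 1.57%. MALAT1, a long nuclear RNA, was at 1149 and 1227 CPM, against 1245 to 14957 CPM. Mitochondrial genes did not set the 2 libraries apart, at 3.29% and 2.18% against 1.49% to 4.03%. Small nucleolar RNAs were above the range of the rest only in line 3 (0.267%). Protein-coding genes were below that range only in line 2 (77.0%). In these libraries 12623 and 12914 genes reached 1 CPM, fewer than the 13253 to 16457 of the other 14, while their total counts of 40248937 and 46333681 were inside the range of the rest. CREBBP was at 69.9 CPM in line 2 with IL4 and at 187 CPM in line 3 at CREBBP baseline, the lowest values of the 16. The part of these differences in the RNA levels was not tested.

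RN7SK was at 27633, 17742, 28859.8 and 30749.9 CPM at AAVS baseline and at 39633, 28158, 41706 and 33902 CPM in AAVS IL4. At CREBBP baseline it was at 34099.7, 21273, 72417 and 17208 CPM, and in CREBBP IL4 at 31347, 81558, 27346 and 18406 CPM. In AAVS pools the IL4 library was the higher in 4 of 4 lines, by 1.10 to 1.59 times, and the groups overlapped. In CREBBP pools line 2 was 3.83 times as high with IL4 and line 3 fell to 0.378 times its baseline.

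RN7SL1 was at 19859, 20666, 23527 and 24440.5 CPM at AAVS baseline and at 25088, 25692, 36990.4 and 22136 CPM in AAVS IL4. It was at 25702, 23552, 40965 and 20484 CPM at CREBBP baseline and at 33783, 62352, 16665 and 15475 CPM in CREBBP IL4. RN7SL2 ranged from 8027 CPM (line 3, CREBBP IL4) to 37033 CPM (line 2, CREBBP IL4). RN7SL1 was above RN7SL2 in all 16 libraries, by 1.32 to 2.42 times. The sum of the pair was 33515 ± 3752 CPM at AAVS baseline, 45416 ± 13260 CPM in AAVS IL4, 42536 ± 12505 CPM at CREBBP baseline and 49383 ± 34992 CPM in CREBBP IL4 (mean ± SD, n = 4 each).

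**Figure D2:**
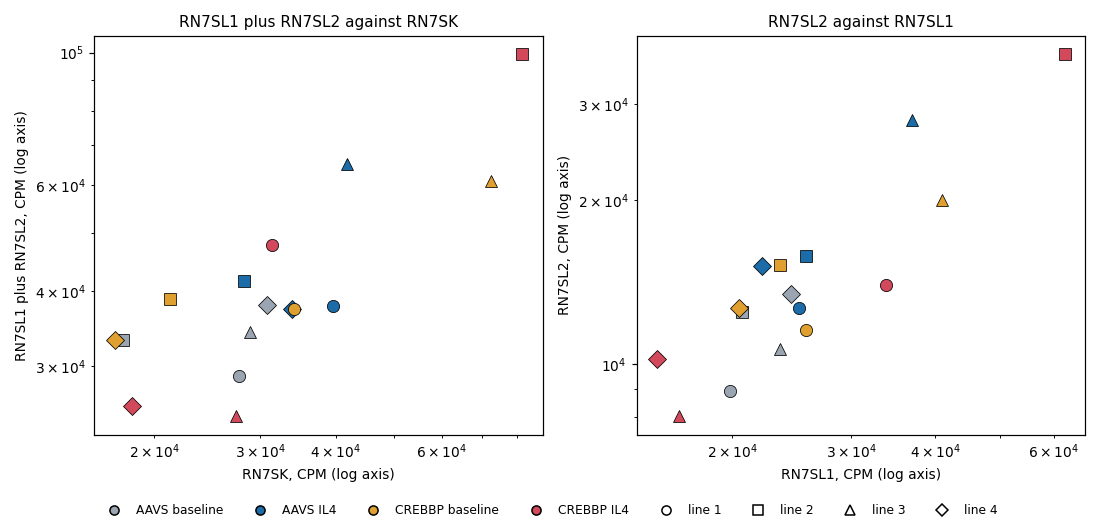
Each point is 1 of the 16 libraries, coloured by group and shaped by line, on log axes of CPM. On the left, RN7SL1 plus RN7SL2 is plotted against RN7SK, and on the right RN7SL2 against RN7SL1. Line 2 of CREBBP IL4 is at the upper right of both panels, at 99385 CPM of 7SL RNA and 81558 CPM of RN7SK.

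RMRP varied most among the RNAs over the 16 libraries, with a ratio of 11.5 between its highest and lowest library. The highest was line 2 of CREBBP IL4. Without it and line 3 of CREBBP baseline RMRP was at 411 to 1818 CPM, beside 2190 to 9334 CPM for RPPH1, a similar spread. RMRP was at 1140.1, 959, 411 and 1460 CPM at AAVS baseline and at 1515, 1517, 765 and 1818 CPM in AAVS IL4. At CREBBP baseline it was at 966, 1580, 2370.2 and 1542 CPM, and in CREBBP IL4 at 790, 4722, 1121 and 1255 CPM. Line 3 was the lowest of its group in both AAVS groups and the highest at CREBBP baseline.

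RPPH1 was at 4328, 2189.9, 4279 and 5461 CPM at AAVS baseline and at 4598, 3602, 4826 and 5077 CPM in AAVS IL4. It was at 5963, 3146, 10508 and 5020.3 CPM at CREBBP baseline and at 9334, 11517, 4597 and 3917 CPM in CREBBP IL4. The CREBBP pool was above the AAVS pool at baseline in lines 1 to 3 and below it in line 4, and the groups overlapped.

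Among the proteins of the 7SK particle the highest of the 16 libraries was 2.28 times the lowest for LARP7 and 2.78 times for MEPCE. Each RNA had 4.03 times or more, HEXIM1 4.20 times and HEXIM2 3.60 times. Without line 2 of CREBBP IL4 and line 3 of CREBBP baseline the RNAs had narrower ranges. Over those 14 libraries RN7SK was at 17208 to 41706 CPM and RN7SL1 at 15475 to 36990 CPM. RN7SL2 was at 8027 to 28114 CPM, RMRP at 411 to 1818 CPM and RPPH1 at 2190 to 9334 CPM. HEXIM1 and HEXIM2 kept their full ranges, and LARP7 and MEPCE were at 43.1 to 65.0 CPM and 52.0 to 113 CPM. LARP7, which binds and protects the 3′ end of 7SK RNA, was at 50.4, 58.7, 65.0 and 52.3 CPM at AAVS baseline and at 43.3, 44.2, 64.4 and 55.7 CPM in AAVS IL4. It was at 43.1, 53.8, 40.5 and 57.8 CPM at CREBBP baseline and at 59.9, 92.4, 55.7 and 55.6 CPM in CREBBP IL4. Line 2 of CREBBP IL4 was its highest library, as for each of the RNAs.

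MEPCE, the capping enzyme of 7SK RNA, was at 85.3, 87.9, 112 and 99.7 CPM at AAVS baseline and at 79.3, 74.0, 52.0 and 76.7 CPM in AAVS IL4. The AAVS IL4 libraries were all below those of AAVS baseline, so that these groups did not overlap. At CREBBP baseline MEPCE was at 113, 82.6, 97.0 and 71.8 CPM, and in CREBBP IL4 at 112, 40.5, 101 and 88.8 CPM. Line 2 of CREBBP IL4, the library with the most 7SK and 7SL RNA, had the least MEPCE of all 16.

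HEXIM1 was at 29.4, 25.8, 34.6 and 42.3 CPM at AAVS baseline and at 38.9, 44.6, 77.9 and 27.1 CPM in AAVS IL4. It was at 39.9, 46.5, 42.6 and 18.5 CPM at CREBBP baseline and at 48.5, 27.0, 39.9 and 26.0 CPM in CREBBP IL4. Its highest value, 77.9 CPM in line 3 of AAVS IL4, was in the library with the highest sum of the surface immunoglobulin and adhesion genes (3635 CPM). HEXIM2, the paralog 8600 bases downstream of HEXIM1 on chromosome 17, was at 0.920 to 3.31 CPM, which is 21 to 157 counts. Its lowest count was line 3 of AAVS IL4, and its 4 groups overlapped.

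**Figure D3:**
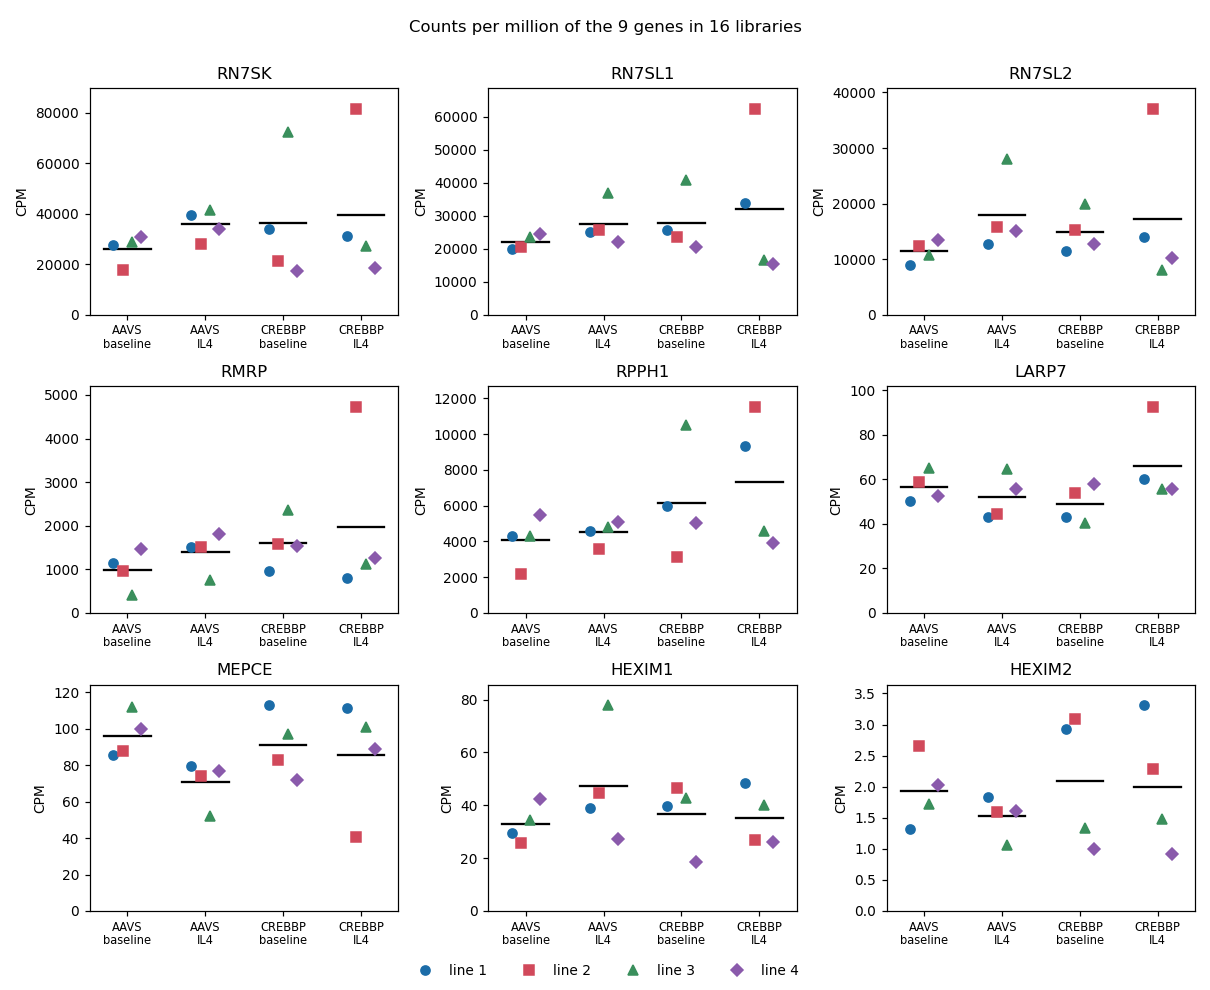
The CPM of the 9 genes is plotted by group, with 1 point per library, shaped and coloured by line, and a bar at the group mean. Line 3 at CREBBP baseline and line 2 in CREBBP IL4 are the highest libraries of RN7SK, RN7SL1, RMRP and RPPH1, and MEPCE of AAVS IL4 (52.0 to 79.3 CPM) is below AAVS baseline (85.3 to 112 CPM).

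Levels per length were compared between genes as CPM per kilobase of the canonical GENCODE transcript, without the effective lengths of RSEM. The mean was 105190 CPM per kilobase for RN7SK, 91425 for RN7SL1, 51255 for RN7SL2, 16585 for RPPH1 and 5665 for RMRP. The proteins followed with 30.4 for MEPCE, 26.5 for LARP7, 10.5 for HEXIM1 and 1.31 for HEXIM2. RN7SK was above RN7SL1 in 11 of 16 libraries and MEPCE above LARP7 in 13 of 16, so these neighbours did not keep 1 order. Every other neighbouring pair kept its order in 16 of 16 libraries, and the step from RMRP to MEPCE was 186 times.

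The question of the design was whether IL4 changes expression, and whether the change depends on CREBBP. For IL4 in AAVS pools, 0 of the 9 genes had an adjusted p under 0.05 in the quasi-likelihood test of edgeR, in which each line was a block, beside 2.4% of the 20310 genes tested. RMRP came nearest, higher in 4 of 4 lines with a log2 fold change of 0.51 ± 0.21 (SE, adjusted p = 0.309 in edgeR, unadjusted 0.0488). MEPCE, whose groups did not overlap, had a log2 fold change of -0.52 ± 0.24 (SE, adjusted p = 0.349 in edgeR). MEPCE was 1 of the 9 genes without overlap, beside 7.04% of all genes tested. The median log2 fold change was 0.40 for the 5 RNAs and -0.29 for the 4 protein genes, against 0.01 for all genes tested.

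For IL4 in CREBBP pools, 0 of the 9 genes and 0% of 18282 genes passed the edgeR test, while 502 genes had an unadjusted p under 0.05, none of them among the 9. None of the 9 was without overlap, beside 0.377% of all genes tested. DESeq2 called 1 gene, not one of the 9. LARP7 had the lowest p of the 9, with a log2 fold change of 0.46 ± 0.22 (SE, adjusted p = 0.924 in edgeR), and was higher in lines 1 to 3. The fold change of RN7SK was 0.13 with a 95% interval from -1.20 to 1.46 on the log2 scale, which spans changes of over 2-fold in either direction. Without lines 2 and 3, which hold the libraries with the most 7SK RNA, it was -0.03.

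For CREBBP against AAVS at baseline, 0 of the 9 genes and 0% of 18936 genes passed the edgeR test, with 2422 at an unadjusted p under 0.05 514 called by DESeq2 and 39 by limma-voom. None of the 9 was without overlap, beside 1.66%. RPPH1 was the 1 gene of the 9 with an unadjusted p under 0.05, at a log2 fold change of 0.64 ± 0.25 (SE, adjusted p = 0.347 in edgeR). DESeq2 called none of the 9. RMRP had the largest value, 0.83 ± 0.41 (SE, adjusted p = 0.429 in edgeR), of which line 3 had the largest part at 5.77 times. The fold changes were positive for 8 of 9 genes, beside 9045 of the 18936 genes tested. Their median was 0.36 against -0.03 for all genes tested. Of the 8, MEPCE turned negative with upper-quartile or total-count scaling and under both other filters, and HEXIM2 with total counts only.

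For CREBBP against AAVS with IL4, 0 of the 9 genes passed the edgeR test, beside 4.39% of 19581 genes, and none of the 9 was without overlap, beside 14.3%. LARP7 had the lowest adjusted p, 0.294 in edgeR, with a log2 fold change of 0.60 ± 0.33 (SE). The interval of RN7SK ran from -1.39 to 1.68 on the log2 scale and that of RPPH1 from -0.40 to 2.06. RN7SK and RN7SL2 changed sign with the scaling: with total counts as the only scaling their log2 fold changes were -0.11 and -0.25, against 0.14 and 0.01 with TMM factors. That scaling moved the median of all genes in this comparison by -0.27.

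The difference in IL4 response between CREBBP and AAVS pools was tested in 1 model of all 16 libraries. It was past the threshold for 0 of the 9 genes, beside 0.638% of 21932 genes. LARP7 had an unadjusted p of 0.0310 and an adjusted p of 0.320 in edgeR, with a difference of 0.76 ± 0.31 on the log2 scale (SE). LARP7 fell to 0.754 times with IL4 in the AAVS pool of line 2 and was 1.72 times as high in the CREBBP pool of the same line. The RNAs had wide intervals, for RN7SK from -1.92 to 1.57.

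**Figure D4:**
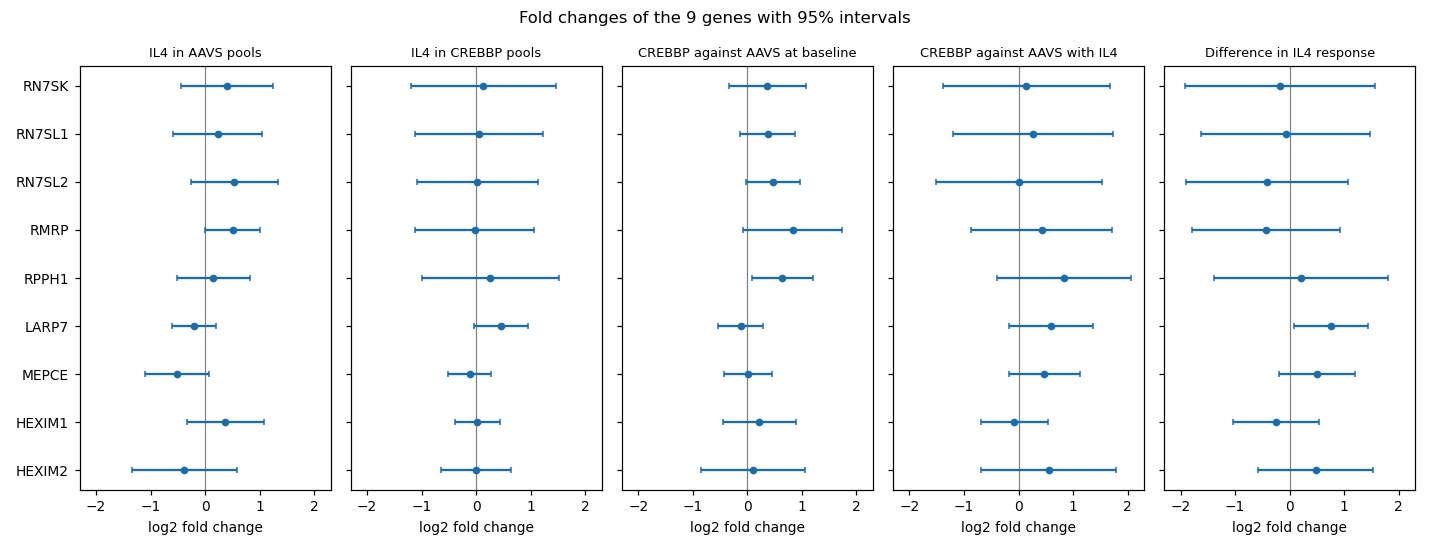
Points are fitted log2 fold changes of the 9 genes in the 5 comparisons, from edgeR, and bars are 95% intervals. The intervals of the RNAs are widest where line 2 of CREBBP IL4 enters, and no gene had an adjusted p under 0.05.

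Differences between lines were tested over the 12 libraries outside AAVS IL4. MEPCE was the 1 gene of the 9 past the threshold (adjusted p = 0.0306, edgeR F test of 3 line terms), beside 43.2% of 20002 genes. Its line means were 103 ± 15.6, 70.4 ± 26.0, 103 ± 7.78 and 86.8 ± 14 CPM (SD, n = 3 each), and the lowest mean, line 2, holds the CREBBP IL4 library at 40.5 CPM. Without line 2 of CREBBP IL4 and line 3 of CREBBP baseline, MEPCE no longer passed (adjusted p = 0.147 in edgeR). RN7SK (0.0399) and RPPH1 (0.0356) passed in that fit, beside 6886 of 20739 genes. These 2 libraries, the highest of both RNAs, were picked after the data were seen for their 7SK RNA. Leaving them out lowers the spread of these RNAs within lines, so that fit is no test of RN7SK or RPPH1. The MEPCE call also ended without line 2, 3 or 4 (0.0844, 0.0873 and 0.0969), with upper-quartile or total-count scaling (0.0692 and 0.324) and with all 16 libraries (0.185).

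Ratios of counts within a library do not depend on its total count, and they are not scaled for length. RN7SL1 plus RN7SL2 to RN7SK was between 0.842 and 1.93 over the 16 libraries, with a median of 1.23, and RN7SK itself varied 4.74 times. Without line 2 of CREBBP IL4 and line 3 of CREBBP baseline the ratio was between 0.903 and 1.93. Over those 14 libraries RN7SK was at 17208 to 41706 CPM, a spread near that of the ratio. RMRP to RPPH1 ranged from 0.0847 to 0.502, and HEXIM1 to HEXIM2 from 9.74 to 72.9, the highest in line 3 of AAVS IL4. LARP7 plus MEPCE to RN7SK was 0.00279 to 0.00420 in AAVS IL4 against 0.00491 to 0.00826 at AAVS baseline, lower in 4 of 4 lines with a mean log2 change of -0.78 ± 0.35 (SD, n = 4; exact two-sided sign-flip test p = 0.13, adjusted p = 0.625). RMRP to RPPH1 fell by 0.62 in the difference of IL4 response, in 4 of 4 lines, with the same p. RN7SL1 to RN7SL2, whose split is uncertain, also moved 1 way in 4 of 4 lines with that p in 3 comparisons. Its mean log2 change was -0.31 for IL4 in AAVS pools, 0.26 for CREBBP against AAVS with IL4 and 0.35 for the difference in response. Over 4 lines 0.13 is the smallest p this test can give, and 25 ratio comparisons were made.

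The partners of these RNAs are known gene groups, described by lists. Of 26 genes of P-TEFb and its regulators, 1 rose with IL4 in AAVS pools, beside 2.4% of all genes tested, with a median log2 fold change over the list of -0.05 against 0.01 for all genes tested. It was ELL2, an elongation factor of the super elongation complex that is also known for its role in immunoglobulin secretion by plasma cells. ELL2 was at 4.92, 0.196, 4.17 and 5.21 CPM at AAVS baseline and at 86.6, 9.84, 194 and 35.7 CPM in AAVS IL4 (log2 fold change 4.36 ± 0.53 SE, adjusted p = 0.0153 in edgeR). It was at 2.52, 0.959, 2.46 and 3.58 CPM at CREBBP baseline and at 2.21, 0.845, 3.43 and 4.26 CPM in CREBBP IL4. The difference in response was -4.11 ± 0.55 on the log2 scale (SE, adjusted p = 0.00957 in edgeR). In AAVS IL4, ELL2 was highest in line 3 and next in line 1, as was the sum of the surface immunoglobulin and adhesion genes, and the part of those transcripts was not tested. The call in AAVS pools was lost without line 1 and without the block (adjusted p = 0.0772 and 0.0834 in edgeR), and that of the difference without line 1, line 3 or the block (0.146, 0.0939 and 0.336).

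With IL4, 4.39% of all 19581 genes tested passed, 189 of them higher and 670 lower in CREBBP pools (103 and 823 with upper-quartile scaling, 56 and 1275 with total counts only). Of the 26 genes above, 2 were lower in CREBBP than in AAVS pools, ELL2 (-4.17 ± 0.57 SE, adjusted p = 0.0169 in edgeR) and AFF1, a scaffold of the same complex (-2.58 ± 0.51 SE, adjusted p = 0.0410 in edgeR). AFF1 was at 120, 27.5, 246 and 28.0 CPM in AAVS IL4 and at 11.2, 7.48, 12.3 and 7.89 CPM in CREBBP IL4. At AAVS baseline it was at 22.3, 15.1, 38.9 and 15.7 CPM. Like ELL2, AFF1 in AAVS IL4 was highest in line 3 and next in line 1. The part of the surface immunoglobulin and adhesion transcripts in it was not tested. In CREBBP against AAVS pools with IL4, 4 of 37 genes of RNA polymerase III and its factors were higher, with a list median of 0.51 against -0.05 for all genes tested. They were POLR3K, a subunit of RNA polymerase III (1.49 ± 0.24), POLR2F and POLR2H, subunits shared with RNA polymerase II (1.46 ± 0.29 and 1.38 ± 0.23), and SSB, the La protein that binds the U-rich ends of new polymerase III RNAs (1.15 ± 0.22), each as a log2 fold change with its SE. In this list 35 of 37 genes had positive fold changes, against 9351 of the 19581 genes tested. For IL4 in AAVS pools the list median was -0.24, with 27 of 37 genes negative, against 0.01 for all genes. For CREBBP against AAVS at baseline it was 0.20, with 28 of 37 positive, against -0.03. The part of the other transcripts of the AAVS IL4 libraries was not tested. The values with IL4 are from TMM factors, and total counts only moved the median of all genes by -0.27 there. Of 8 signal recognition particle proteins 1 was higher in CREBBP than in AAVS pools with IL4, SRPRB, the membrane anchor of its receptor (1.0 ± 0.20 SE, adjusted p = 0.0426 in edgeR). None of the 11 RNase P and RNase MRP proteins passed, with POP7 and POP4 the highest by CPM and a list median of 0.69. Of these 11 genes 7 had an unadjusted p under 0.05 in edgeR, beside 5018 of the 19581 genes tested. Of the LARP family (LARP1 and LARP4B the highest) and of other small noncoding RNAs (SCARNA2 and RN7SL3 the highest), 0 of 4 and 0 of 4 tested genes passed. Apart from ELL2, every call named here was lost when line 1, line 3 or line 4 was left out, and ELL2's against AAVS IL4 when line 1 or line 3 was. Upper-quartile scaling ended the calls of POLR2F and SRPRB (adjusted p = 0.0599 and 0.0682 in edgeR), and total counts only those of POLR2F, SRPRB and SSB (0.0778, 0.132 and 0.0819). Without the block POLR2F, SRPRB, SSB and POLR3K no longer passed (0.0802, 0.131, 0.158 and 0.137). In the remaining comparisons of treatment or target, 0 genes of these lists passed, other than ELL2.

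**Figure D5:**
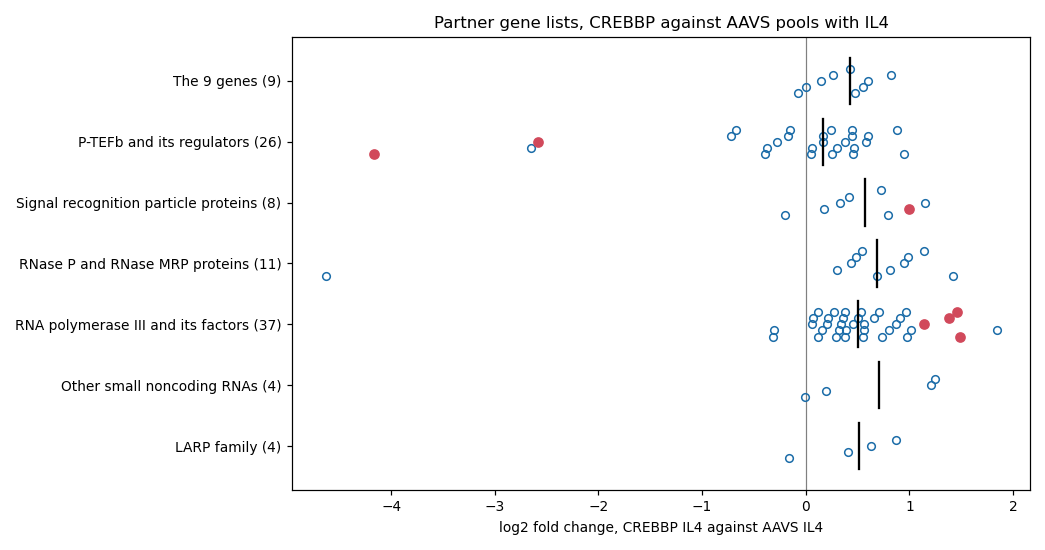
Each point is 1 gene's log2 fold change in CREBBP IL4 against AAVS IL4, for the 9 genes and for 6 partner lists, with the number of genes tested in brackets. Filled red points have an adjusted p under 0.05 and black bars are medians, which is 0.42 for the 9 genes and 0.51 for RNA polymerase III and its factors.

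The genes most like a member over the 16 libraries were found by Pearson's r of log2(CPM + 1) among 9081 genes with a mean of at least 10 CPM. These r values are descriptions over libraries that share their lines. For RN7SK they were its copies RN7SKP80 (r = 0.917) and RN7SKP71 (0.910) and the ribosomal protein gene RPL30 (0.897). For RN7SL1 they were RN7SL2 (0.889), RNF181 (0.854) and RN7SK (0.851), and without line 2 of CREBBP IL4 and line 3 of CREBBP baseline its r over 14 libraries was 0.774 with RN7SL2 and 0.642 with RN7SK. For RPPH1 they were SCARNA12 (0.903), COX7C (0.889) and UQCRB (0.889). For HEXIM1 all 3 were AP-1 transcription factor genes, JUNB (0.906), FOSB (0.874) and JUN (0.868). LARP7 was most like HNRNPH2 (0.824), CAPZA2 (0.791) and BTBD10 (0.790). Of the r values printed above, only those of RN7SL1 with RN7SL2 and RN7SK were also computed over the 14 libraries. The r of RN7SK with RPPH1 was 0.788 over 16 libraries and 0.526 over those 14. The copies RN7SKP80 and RN7SKP71 share sequence with RN7SK.

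Other annotated rows share sequence with the RNA genes. The 293 RN7SKP rows summed to 117 to 1251 CPM, 0.611% to 1.74% of the RN7SK level, and the 677 RN7SL pseudogene rows to 185 to 991 CPM, 0.559% to 1.45% of RN7SL1 plus RN7SL2. A second gene entry over the same bases as RN7SK held 5.78 to 717 CPM, at most 2.49% of RN7SK. A long noncoding RNA that spans RPPH1 on the same strand held 21.0 to 495 CPM, up to 11.6% of RPPH1 in line 3 at AAVS baseline. RN7SL1 lies within RPS29 on the other strand, and HEXIM2-AS1 overlaps HEXIM1 by 1700 bases and HEXIM2 by 839 bases on the other strand. The methods name a stranded kit but not the strand setting of the counting, so reads of these overlapping genes may not have been told apart.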

How the data were processed

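The authors depleted ribosomal RNA and made paired-end libraries. Cutadapt 2.3 trimmed the reads, STAR 2.7.8a placed them on GRCh38 and RSEM 1.3.3 estimated the counts. The submitters' processing notes list these tools, and the study's methods describe their use for primary cells and refer to that account for the lines. That account averages the counts of technical replicates. The strand setting of the counting is not given in the sources used here. The deposited values are expected counts, estimated per gene and stored as whole numbers, so no rounding was needed. The 4 rows of reporter genes, at 0 in all libraries, were left out. Libraries held 19649735 to 61981976 counts, so counting error is small beside the spread between libraries for all of the 9 genes but HEXIM2.

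CPM is the count over the library total. Genes were kept by filterByExpr, scaled with TMM factors and tested with the quasi-likelihood test of edgeR 4.0.16 in R 4.3.3, with the line as a block, Benjamini-Hochberg adjustment over all genes tested and a threshold of 0.05. Intervals are 95%. DESeq2 1.42.0, limma 3.58.1, Python 3.11.15, numpy 2.4.6, pandas 2.3.3 and scipy 1.17.1 served the alternatives and descriptions. The tests were checked on simulated counts. GENCODE release 44 gave positions and lengths and held 99.9% of the gene IDs. Promoter windows of the protein genes came from RefSeq (GRCh38.p14), and those of the RNA genes, which that table does not list, from the GRCh38 genome.

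The line number pairs libraries of 1 cell line. Deviations from group means correlated within lines with medians of 0.640, 0.729, 0.311 and 0.723 for lines 1 to 4 over 9082 genes, and the lowest of the 6 correlations in a line was -0.16, in line 3. Libraries of a group differed beyond counting noise (chi-square per degree of freedom of at least 98.7). The labels name no separate cultures within a line, so p-values measure the spread between these pools.

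The 9 genes, the lists and the tests were chosen with earlier results of these data known. The 9 genes are all named. Of each list at most 3 called genes with the largest fold change are named, or the 2 of highest mean CPM where none was called, and SSB was named in addition after its value was seen. Alternatives were other scaling factors, other filters, DESeq2, limma-voom, no block, all 16 libraries in 1 fit, the 5 RNAs left out of the totals, and each line left out in turn. Leaving out lines 2 and 3, or the 2 libraries with the most 7SK RNA, was added after the data were seen. The sequences of the 7SL RNAs themselves are not reported here.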

Additional observations from a re-analysis of the deposited data

Results flagged for a closer look

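In each group of 4 libraries the gap of the highest or lowest library to its neighbour was compared with the group's range, for the 9 genes, 3 sums of them and 5 ratios. The gap was past the 95% critical value of Dixon's test in 3 of 68 groups, and chance flags about 1 in 20. RMRP in CREBBP IL4 had its highest library in line 2, at 4722 CPM against 790 to 1255 CPM in the other 3. LARP7 in CREBBP IL4 had its highest library in the same line, at 92.4 CPM against 55.6 to 59.9 CPM. RN7SL1 plus RN7SL2 in AAVS IL4 had its highest library in line 3, at 65105 CPM against 37279 to 41505 CPM.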

How the results depend on the processing

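None of the 9 genes had an adjusted p under 0.05 in a comparison of treatment or target under any alternative (639 values, smallest adjusted p 0.0695), and 575 of these values kept their sign. Without the replicate block 0 of the 9 genes were called in each comparison, as with it. The difference between lines, 1 gene called, had 0 with upper-quartile scaling, 0 with total counts only, 3 without a filter, 0 with all 16 libraries, 2 without line 2 CREBBP IL4 and line 3 CREBBP baseline (an alternative chosen after seeing the data, as was leaving out lines 2 and 3), and 0 to 1 when a line was left out. The sign of the log2 fold change turned as follows. For IL4 in CREBBP pools, MEPCE was 0.13 without lines 2 and 3, HEXIM2 was 0.023 with DESeq2 size factors, 0.026 in DESeq2, 0.023 in limma-voom, 0.053 without the replicate block, 0.046 with all 16 libraries in 1 fit and 0.017 without lines 2 and 3, HEXIM1 was -0.024 with total counts only and -0.041 without the replicate block, RN7SL2 was -0.018 with total counts only and -0.037 without lines 2 and 3, RN7SL1 was -0.023 without lines 2 and 3, RMRP was 0.0033 in limma-voom, 0.46 without the replicate block and 0.12 with all 16 libraries in 1 fit and RN7SK was -0.030 without lines 2 and 3. For CREBBP against AAVS at baseline, MEPCE was -0.071 with upper-quartile factors, -0.092 with total counts only, -0.036 without a filter and -0.014 with at least 10 counts in every library and HEXIM2 was -0.0035 with total counts only. For CREBBP against AAVS with IL4, RN7SL2 was -0.0076 with DESeq2 size factors, -0.20 with upper-quartile factors, -0.25 with total counts only, -0.088 with at least 10 counts in every library, -0.0076 in DESeq2 and -0.015 in limma-voom and RN7SK was -0.072 with upper-quartile factors and -0.11 with total counts only. For the difference in IL4 response, HEXIM1 was 0.55 without lines 2 and 3, RN7SL1 was 0.18 without the replicate block and RMRP was 0.088 without the replicate block. Leaving out a line in turn gave these ranges of log2 values for the results that changed sign. For IL4 in AAVS pools, these were -0.067 to 0.24 for RPPH1 and -0.21 to 0.034 for RN7SL1 plus RN7SL2 to RN7SK. For IL4 in CREBBP pools, these were -0.25 to 0.017 for MEPCE, -0.060 to 0.052 for HEXIM2, -0.11 to 0.15 for HEXIM1, -0.54 to 0.56 for RN7SL2, -0.53 to 0.61 for RN7SL1, -0.65 to 0.45 for RMRP, -0.40 to 0.86 for RPPH1, -0.56 to 0.75 for RN7SK, -0.31 to 0.038 for RN7SL1 plus RN7SL2 to RN7SK, -0.16 to 0.16 for HEXIM1 to HEXIM2 and -0.55 to 0.64 for LARP7 plus MEPCE to RN7SK. For CREBBP against AAVS at baseline, these were -0.13 to 0.15 for MEPCE, -0.26 to 0.45 for HEXIM2, -0.011 to 0.64 for HEXIM1, -0.031 to 0.74 for RN7SK, -0.15 to 0.23 for RN7SL1 plus RN7SL2 to RN7SK, -0.10 to 0.54 for RMRP to RPPH1, -0.084 to 0.37 for HEXIM1 to HEXIM2 and -0.72 to 0.046 for LARP7 plus MEPCE to RN7SK. For CREBBP against AAVS with IL4, these were -0.26 to 0.14 for HEXIM1, -0.54 to 0.55 for RN7SL2, -0.21 to 0.69 for RN7SL1, -0.11 to 0.87 for RMRP, -0.40 to 0.43 for RN7SK, -0.24 to 0.25 for RN7SL1 plus RN7SL2 to RN7SK and -0.72 to 0.14 for RMRP to RPPH1. For the difference in IL4 response, these were -0.81 to 0.077 for HEXIM1, -1.12 to 0.32 for RN7SL2, -0.70 to 0.54 for RN7SL1, -1.08 to 0.087 for RMRP, -0.34 to 0.73 for RPPH1, -0.85 to 0.41 for RN7SK and -0.28 to 0.025 for RN7SL1 plus RN7SL2 to RN7SK. Over all genes tested, the count past the threshold ran from 25 to 2062 for IL4 in AAVS pools (488 as reported), 0 to 40 for IL4 in CREBBP pools (0), 0 to 586 for CREBBP against AAVS at baseline (0), 25 to 4393 with IL4 (859), 2 to 1191 for the difference in response (140, and 2 without the replicate block) and 4504 to 10659 between lines (8631). Upper-quartile and total-count scaling moved the median log2 fold change of all genes by -0.21 and -0.27 for CREBBP against AAVS with IL4 and by -0.15 and -0.21 for the difference in response. The cause of these changes was not tested. Depth limits HEXIM2 most, at 21 to 157 counts.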

Other observations

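The sharing of sequence by overlapping entries was uneven between libraries. In line 3 at AAVS baseline the second 7SK entry held 717 CPM, 2.49% of RN7SK, against 0.0336% to 0.598% in the other 15 libraries, and the long noncoding RNA over RPPH1 held 11.6% of RPPH1 there and 6.11% in line 3 of AAVS IL4.

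RN7SK, RMRP and RPPH1 each have a protein-coding gene that starts close by on the other strand. The starts are 317 bases apart for GSTA4 and RN7SK, 273 for CCDC107 and RMRP, and 208 for PARP2 and RPPH1. The octamer ATGCAAAT, known to be bound by POU factors, lay in the 300-base windows of RMRP and RPPH1, on either strand, and in 1.77% of 35116 RefSeq promoters.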
